A study of Mus musculus with 13 samples.

Results

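AEBP2 peaks at 457 gene promoters of mouse embryonic stem cells (mESCs) lay where no H3K27me3 peak was called. These 457 regions, called the member regions here, were chosen from 2410 stretches of DNA that held an AEBP2 peak in both replicates. A region was selected where a peak of each AEBP2 list overlapped by at least 1 bp, neither H3K27me3 list had a peak on it, and it came within 1 kb of the start of a protein-coding gene. Another 1269 AEBP2 regions met the same promoter rule but overlapped H3K27me3, and 156 lay away from promoters with no H3K27me3. With the longer list of AEBP2 replicate 2 alone, without replicate 1, the rule would have taken 2233 regions. The peak positions of AEBP2 and H3K27me3 thus chose the members, so every AEBP2 and H3K27me3 value given for them is a description and was not tested.

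The data were ChIP-seq peak lists, 5 in all, all from wild-type cells that the labels name as the 129/1 XY ES cell line, a male line. Endogenous AEBP2 had 2 lists, with an antibody raised in rabbit against the full-length mouse protein, and so had histone H3K27, whose antibody the labels name without the methylation state and the study names as H3K27me3. FS2-AEBP2, the protein with an N-terminal Flag-StrepII tag expressed from a plasmid, had 1 list and no replicate. For the tagged protein the study's methods name E14 mESCs and beads blocked with albumin and yeast tRNA, a protocol the endogenous ChIPs did not share. Nothing said whether the replicates came from separate cultures, and no AEBP2 ChIP from cells without the protein was used here. The lists held 2877 and 6779 AEBP2 peaks, 14112 and 9275 H3K27me3 peaks and 2884 FS2-AEBP2 peaks on chromosomes 1 to 19, X and Y. The peaks carry no read numbers. The names of the lists hold figures that may be read numbers, but these were not used, so the depth behind a peak was not established.

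AEBP2 is a zinc finger protein that joins Polycomb repressive complex 2 (PRC2) together with JARID2, and PRC2 is the enzyme that places methyl groups on lysine 27 of histone H3. In mESCs this mark covers the CpG islands of silent developmental genes, as long domains that often run over several kilobases. CpG islands at the promoters of genes active in every cell usually lack it and carry sites of factors such as NRF1, a regulator of nuclear genes for mitochondria and of many housekeeping genes. NRF1 reads a palindrome in which CGCA is mirrored by TGCG.

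DNA of the member regions is shown first for the 6 members that rank highest by AEBP2 score in both lists together, because these carry some of the strongest peaks. The stretches of Rpl22 and Snx18 hold none of the words marked. Each line is the strand of the gene, 5′ to 3′, ending on the base before its annotated start, in the mm9 build. Palb2 is shorter, since it shares its promoter with the divergent gene Dctn5 and only bases outside annotated exons are shown. Capitals mark the NRF1 word GCATGCGC, the word CGCANGCG, which is the centre CGCATGCG of the same palindrome with 1 base left free, the palindrome word CTCGCGAG and the 5-letter word ATCGA, each searched on both strands. Adjoining and overlapping copies run together in capitals.
Rpl22, chr4:151699701-151699850, plus strand: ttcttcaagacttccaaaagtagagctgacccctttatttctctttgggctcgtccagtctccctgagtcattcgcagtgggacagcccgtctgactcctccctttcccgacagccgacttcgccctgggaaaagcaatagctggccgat
Snrpb2, chr2:142888625-142888774, plus strand: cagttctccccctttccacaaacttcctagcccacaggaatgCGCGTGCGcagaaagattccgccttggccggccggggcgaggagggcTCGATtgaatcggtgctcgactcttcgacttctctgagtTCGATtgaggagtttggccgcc
Palb2, chr7:129276461-129276554, minus strand: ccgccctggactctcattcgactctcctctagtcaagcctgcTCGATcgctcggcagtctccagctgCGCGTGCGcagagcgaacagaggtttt
Exoc2, chr13:31065917-31066066, minus strand: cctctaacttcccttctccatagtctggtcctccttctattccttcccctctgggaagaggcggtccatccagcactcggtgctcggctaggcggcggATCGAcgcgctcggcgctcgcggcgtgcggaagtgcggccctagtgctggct
Snx18, chr13:114408773-114408922, minus strand: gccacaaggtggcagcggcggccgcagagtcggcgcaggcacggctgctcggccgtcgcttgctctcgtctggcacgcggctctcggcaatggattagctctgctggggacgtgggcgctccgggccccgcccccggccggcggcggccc
Pomt1, chr2:32091960-32092109, plus strand: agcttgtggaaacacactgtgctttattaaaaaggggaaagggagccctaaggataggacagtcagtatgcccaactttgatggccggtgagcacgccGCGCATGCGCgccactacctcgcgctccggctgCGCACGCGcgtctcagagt

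The next stretches come from further members that hold CGCATGCG, the centre of the NRF1 palindrome, just upstream of the gene. They are shown because the words recur within single promoters, and other members with CGCATGCG upstream, some with higher scores, are not printed. Rab3gap2 encodes a regulator of the vesicle GTPase RAB3, Mrpl32 a protein of the mitochondrial ribosome, Xpo5 the exporter of microRNA precursors and Nup50 a protein of the nuclear pore.
Rab3gap2, chr1:187027897-187028046, plus strand: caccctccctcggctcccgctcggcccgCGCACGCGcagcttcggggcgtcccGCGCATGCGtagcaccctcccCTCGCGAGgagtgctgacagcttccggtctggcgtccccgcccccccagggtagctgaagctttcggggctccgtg
Mrpl32, chr13:14705305-14705454, minus strand: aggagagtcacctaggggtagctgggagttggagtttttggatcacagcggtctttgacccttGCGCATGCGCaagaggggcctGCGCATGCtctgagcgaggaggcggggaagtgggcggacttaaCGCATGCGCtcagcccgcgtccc
Xpo5, chr17:46339654-46339803, plus strand: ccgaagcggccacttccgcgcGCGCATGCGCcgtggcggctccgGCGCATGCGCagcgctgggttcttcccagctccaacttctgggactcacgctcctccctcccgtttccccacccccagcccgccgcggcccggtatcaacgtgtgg
Nup50, chr15:84753681-84753830, plus strand: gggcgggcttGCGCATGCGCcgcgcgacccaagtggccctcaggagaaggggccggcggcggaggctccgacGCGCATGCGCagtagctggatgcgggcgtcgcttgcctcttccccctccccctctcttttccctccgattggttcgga

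The last pair shows the 5-letter word at its 6-letter palindrome, ATCGAT, within the peak centres of members with high scores. Both stretches lie outside annotated exons. The word is centred 45 bp upstream of the start of Jmjd5, which encodes a protein of the Jumonji family, and 196 bp upstream of the start of Ercc2, which encodes a helicase of the repair and transcription factor TFIIH.
Jmjd5, chr7:132588115-132588174, plus strand: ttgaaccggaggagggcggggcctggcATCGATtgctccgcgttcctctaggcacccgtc
Ercc2, chr7:19967133-19967192, plus strand: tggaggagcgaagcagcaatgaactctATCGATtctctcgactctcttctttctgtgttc

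Most of the strongest AEBP2 peaks of both lists lay at member regions. The deposited score of a peak is a whole number whose scale is not stated, so it was read only within its own list. Rpl22, which encodes a protein of the large ribosomal subunit, had a score of 127 in replicate 1 and 193 in replicate 2, the highest of the second list. Snrpb2, for a protein of the U2 particle of the spliceosome, scored 137 and 142. Palb2, whose product joins BRCA2 in the repair of DNA breaks, scored 122 and 189. Exoc2, for a subunit of the exocyst that tethers secretory vesicles, had the highest score of replicate 1, 148, and 124 in replicate 2. All 4 ranked among the 4 highest peaks of replicate 1. The other genes of the 10 highest by the mean of both ranks serve in varied tasks. Snx18, a sorting nexin, scored 103 and 140. Pomt1, an enzyme that adds mannose to proteins, scored 103 and 118. Vamp4, a SNARE of the trans-Golgi, scored 89 and 171. All 3 act in membrane traffic or in the modification of proteins. Cox19, which assists in the assembly of cytochrome oxidase, scored 90 and 131. Ambra1, a regulator of autophagy, scored 81 and 127. The region shared by BC067068 and Ccdc59 scored 92 and 117. Of the 10 highest peaks in each list, 8 overlapped a member in replicate 1 and 8 in replicate 2, and of the peaks with a score of 50 or more, 36 of 44 and 72 of 116 did. For scale, the members were 457 regions, and the whole lists held 2877 and 6779 peaks.

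Most members had far lower scores. In replicate 1 they ran from 1 to 148 with a median of 8 and quartiles of 5 and 15, and in replicate 2 from 1 to 193 with a median of 16 and quartiles of 8 and 32. The AEBP2 promoter regions with H3K27me3 had medians of 8 and 15, but their highest scores were 99 and 112. The medians were thus close, and the members reached further up. Both replicates ordered the members alike, with a Spearman rho of 0.69 across the 457 regions, which are not independent replicates and all had to be called in both lists. Of the members, 254 lay in the top 25% of replicate 2 by score and 146 in the top 25% of replicate 1. All regions also had to be called in the shorter list of replicate 1. AEBP2 promoter regions with H3K27me3 were placed much alike. The median share of replicate 2 peaks with a lower score was 80.7% for members and 79.1% for those regions, and in replicate 1 it was 54.7% for both.

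**Figure D1:**
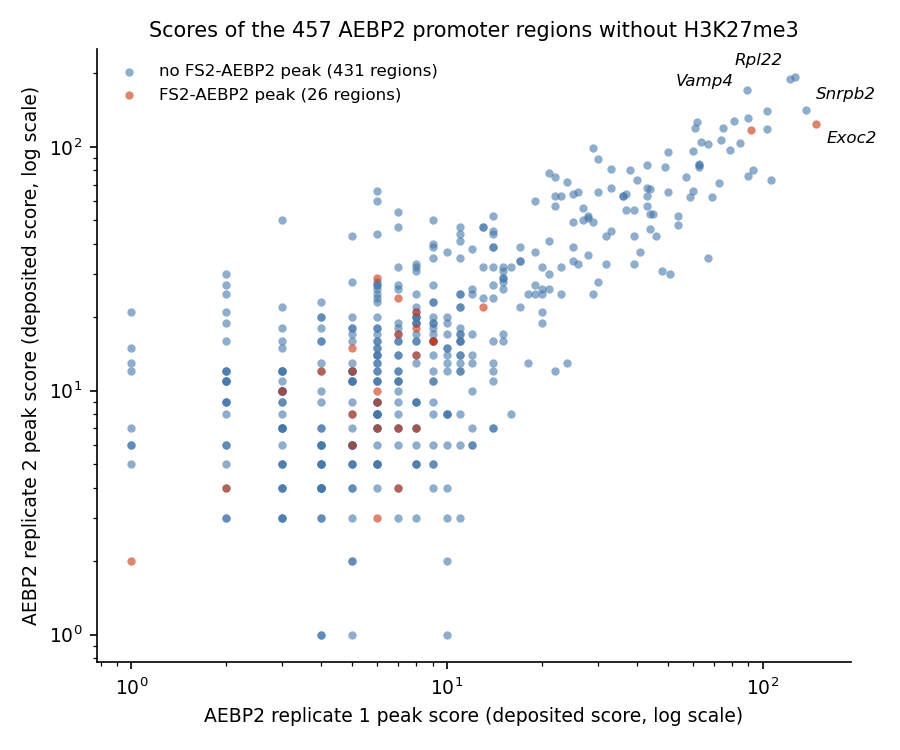
Deposited AEBP2 peak score of each of the 457 member regions in replicate 1 (horizontal, log scale) and replicate 2 (vertical, log scale), where each point is 1 region and red points are the 26 with an FS2-AEBP2 peak. The scores rise together up to 148 and 193, and of the 26 red points only the regions at Exoc2 and BC067068 lie among the 92 with the highest scores.

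Member regions were short and centred on the gene start. Their median length was 739 bp, from 209 to 2550 bp with quartiles of 526 and 1025 bp, against a median of 2944 bp for AEBP2 promoter regions with H3K27me3. Only 6 of the 457 members (1.31%) reached 2 kb, against 925 of the 1269 with H3K27me3 (72.9%). Among the shortest were those at Flad1 (209 bp) and Fam151b (232 bp), and the longest were at Rnase4 (2550 bp), Anp32a (2533 bp) and Zfp827 (2390 bp). The middle of the stretch that both replicates covered lay a median of 40 bp downstream of the gene start, and within 250 bp of it in 369 members (80.7%). The same middle lay within 250 bp in 258 regions with H3K27me3 (20.3%), where its median was 536 bp downstream. The start itself was inside a replicate 1 peak in 348 members (76.1%) and inside a replicate 2 peak in 395 (86.4%).

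**Figure D2:**
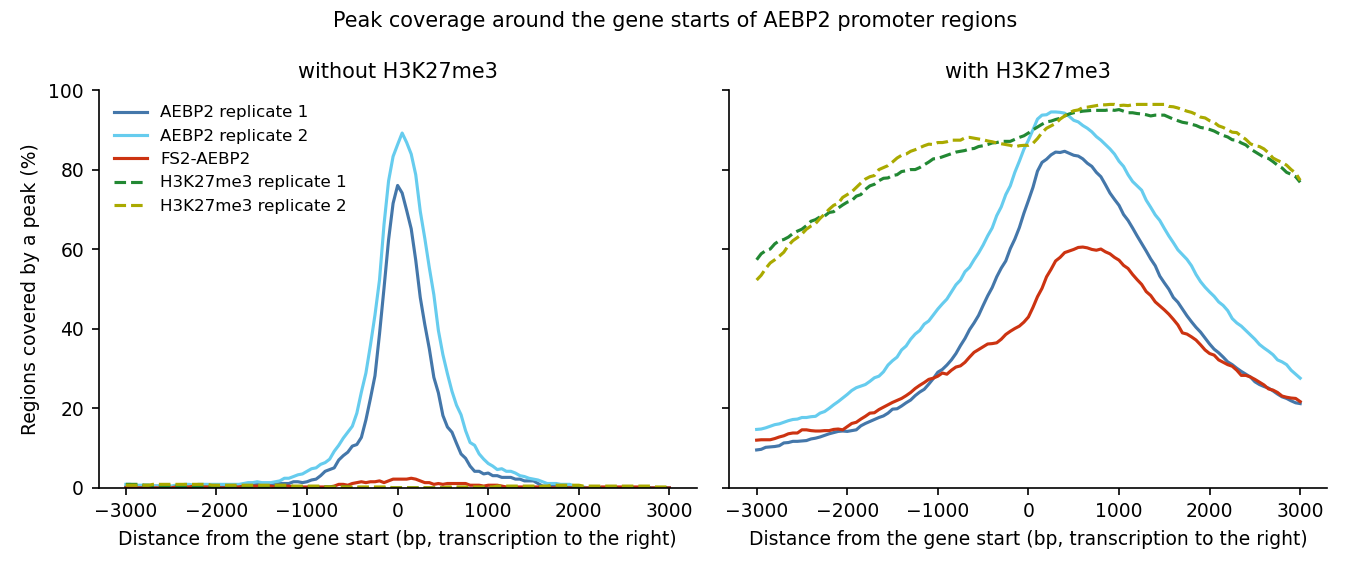
Share of regions (vertical, in percent) in which each of the 5 peak lists covered a position at the given distance in bp from the gene start (horizontal), for the 457 member regions on the left and the 1269 AEBP2 promoter regions with H3K27me3 on the right. AEBP2 coverage of the members peaked at the start, at 76.1% in replicate 1, whereas with H3K27me3 the coverage of all lists extended over several kilobases. The absence of H3K27me3 near the start on the left was set by how the members were chosen.

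H3K27me3 was usually far from the members. The gap to the nearest H3K27me3 peak of either list had a median of 65821 bp and ran from 9 to 3589822 bp. It was under 5 kb in 23 members (5.03%) and under 50 kb in 192 (42.0%). For the 156 distal AEBP2 regions without H3K27me3 the median gap was 36395 bp. The rule excluded any overlap, and the distance to be expected from the number of H3K27me3 peaks alone was not computed. The closest were Lrrn4 at 9 bp (AEBP2 scores of 5 and 11), B230208H17Rik at 50 bp (1 and 2) and 6430571L13Rik at 335 bp (6 and 13). Just on the other side of the rule, Gm17296 overlapped an H3K27me3 peak by 9 bp and had scores of 16 and 16. Fzd6, a Wnt receptor, overlapped by 32 bp (1 and 7), and Dnajc3, a chaperone of the endoplasmic reticulum, by 68 bp (3 and 2). Apart from the 16 of Gm17296 in replicate 1, these 6 regions had scores at or below the upper quartiles of the members, and they lay within 335 bp of the limit that the rule set.

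Tagged AEBP2 was called at few members. Of the 457, 26 had an FS2-AEBP2 peak (5.69%, 95% Wilson interval 3.91 to 8.21), against 979 of the 1269 AEBP2 promoter regions with H3K27me3 (77.1%, 74.8 to 79.4). The difference was -71.5 percentage points (95% interval -74.3 to -68.0), with an adjusted p of 4.96e-171 by a two-sided Fisher's exact test over regions, adjusted over 3 tests. The FS2 list had no part in choosing the regions, but it is 1 sample, from another protocol, and the test counts regions and not samples. Member regions were also shorter, and a longer region offers more room for a peak. Among regions with H3K27me3 that were no longer than the upper quartile of the members, 17 of 61 had an FS2-AEBP2 peak (27.9%, 18.2 to 40.2). Among those no longer than the longest member, 291 of 524 did (55.5%). The share was thus lower in shorter regions, and the part of length in the difference from the members was not tested. Of the members up to the median length 3.48% had an FS2-AEBP2 peak, and of the longer ones 7.93%.

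The 26 members with an FS2-AEBP2 peak were not those with the highest AEBP2 scores. Rnase4 and Ang, ribonuclease genes with a shared promoter, had an FS2-AEBP2 score of 62 and AEBP2 scores of 8 and 18. Ilf2, for a double-stranded RNA-binding protein, had an FS2-AEBP2 score of 44 and AEBP2 scores of 8 and 14. Odc1, the first enzyme of polyamine synthesis, had 43 beside 13 and 22. Next came 0610011F06Rik (FS2-AEBP2 score 40, AEBP2 scores 5 and 12), 1700064H15Rik (32, with 6 and 29) and, at the same FS2-AEBP2 score of 32, Casc5, a kinetochore protein (8 and 21). Among the 10 members with the highest AEBP2 scores only Exoc2 and BC067068 had an FS2-AEBP2 peak, with FS2-AEBP2 scores of 10 and 3. Rpl22, Snrpb2, Palb2, Snx18, Pomt1, Vamp4, Cox19 and Ambra1 had none. Distal AEBP2 regions without H3K27me3 had an FS2-AEBP2 peak in 41 of 156 cases (26.3%). Counted over promoters, 31 of the 551 genes at members had one (5.63%, 3.99 to 7.88), against 52 of 6289 genes with a CpG-island-like promoter and no AEBP2 or H3K27me3 peak (0.827%, 0.631 to 1.08).

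The members were CpG islands nearly without exception. A CpG-island-like region was defined by windows of 500 bp whose GC content reached 55% and whose CpG number reached 0.65 of that expected from their C and G. One was found at 447 of the 457 members (97.8%, 96.0 to 98.8) and at 1255 of the 1269 regions with H3K27me3 (98.9%, 98.2 to 99.3). The difference of -1.08 percentage points (-2.93 to 0.155) did not pass the threshold (adjusted p = 0.103, two-sided Fisher's exact test), and its sign changed in 3 of the alternatives. Over all protein-coding genes the share was 55%. The median GC content of the members was 66.2% and the median CpG ratio 0.894, against 64.6% and 0.748 with H3K27me3.

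Divergent gene pairs were common at the members. A pair of genes that start within 1 kb of each other and point apart lay at 54 of the 457 members (11.8%, 9.17 to 15.1) and at 21 of the 1269 regions with H3K27me3 (1.65%, 1.08 to 2.52). The difference was 10.2 percentage points (7.38 to 13.5), with an adjusted p of 6.39e-17 by a two-sided Fisher's exact test. Palb2 with Dctn5, a dynactin subunit, and Exoc2 with Gm5447 were such pairs among the 10 highest scores. Counted over genes, 112 of the 551 genes at members had a divergent start within 1 kb (20.3%, 17.2 to 23.9). Both genes of a pair are counted here, so the genes are not independent, and the intervals over genes do not allow for this. CpG-island-like promoters with no AEBP2 or H3K27me3 peak reached 15% (14.1 to 15.9), and genes at AEBP2 regions with H3K27me3 3.05%. The contrast with H3K27me3 regions was thus far larger than that with CpG-island promoters that had neither peak.

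**Figure D3:**
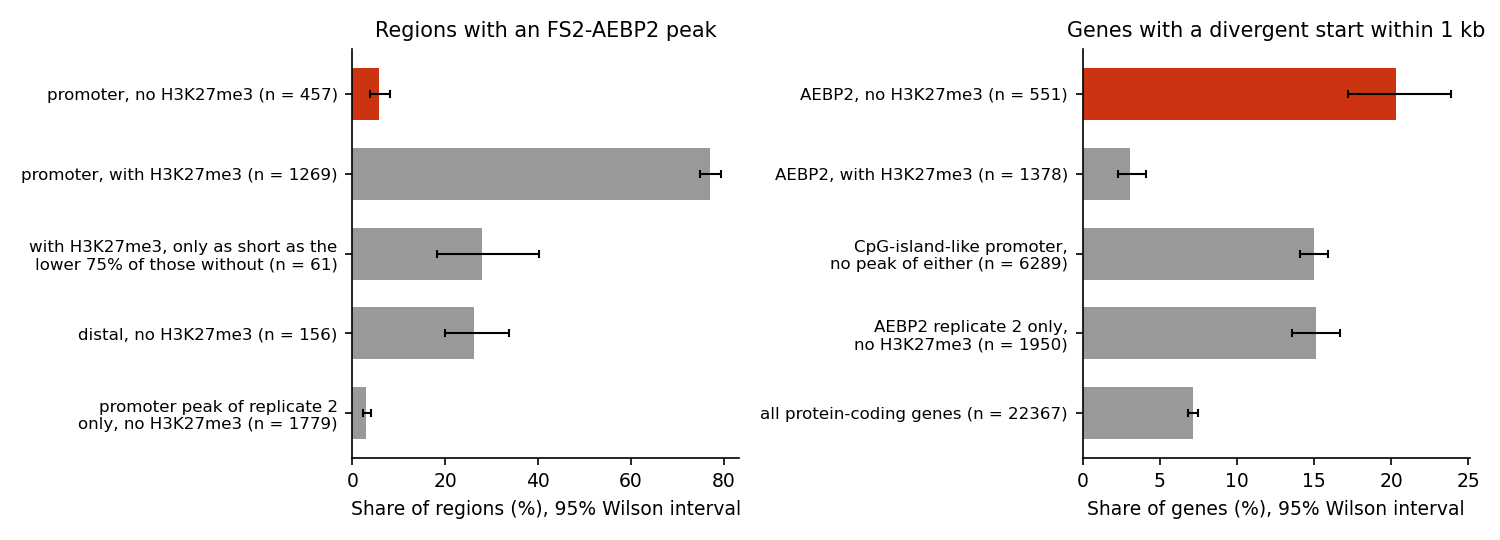
Share of regions with an FS2-AEBP2 peak (left) and share of genes with a divergent gene start within 1 kb (right), both in percent, with 95% Wilson intervals as error bars and member regions in red. FS2-AEBP2 covered 5.69% of members and 77.1% of AEBP2 promoter regions with H3K27me3, while divergent starts were found for 20.3% of genes at members and 15% of genes with a CpG-island-like promoter and neither peak. Both genes of a pair are counted on the right, which the intervals do not allow for.

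The genes at the members included some from 18 of the 20 lists examined, mostly lists of genes needed in every cell. The 2 lists with none were the developmental transcription factors and the pluripotency genes. Most of the former carried H3K27me3 at the promoter, and the rule takes no region that overlaps it. In all, 549 gene symbols of 22225 lay at a member (2.47%), and of the 8756 with a CpG-island-like promoter and no H3K27me3, 533 did (6.09%). The second share is the one to read the lists against, since nearly all members are CpG-island-like and the rule could take no gene with H3K27me3 on the region. No list was tested, because the lists were drawn up with results of these data known.

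In the nucleus, 7 of 36 genes of homologous recombination and the Fanconi pathway lay at a member, 5 of the 29 with a CpG-island-like promoter and no H3K27me3 (17.2%). Besides Palb2, these were Rad54l, a motor of strand exchange (scores 36 and 63), the nuclease genes Fan1 (39 and 55) and Slx4 (15 and 29), Rmi1 (4 and 9), Rad54b (2 and 11) and Fancl (4 and 6). Of the spliceosome proteins, 10 of 78 were at a member, 10 of the 74 with such a promoter (13.5%). After Snrpb2 came Snrpa1 (67 and 103), Lsm7 (44 and 67), Lsm5 (54 and 48), Sf3a2 (11 and 16) and Snrnp70 (5 and 18). Both lists had a share above 6.09% and scores from under 6 to over 100. Replication and the cell cycle gave 4 of 86 (4.65%), namely Gins3 (63 and 84), the mitotic kinase Aurka (45 and 53), Cdc7 (7 and 18) and Cdt1 (6 and 11). RNA polymerase subunits gave 2 of 26 (7.69%), Polr2b (10 and 14) and Polr3e (5 and 6). Mediator gave 2 of 28 (7.14%), Med22 (6 and 9) and Med4 (2 and 12). RNA helicases gave 3 of 44 (6.82%), Ddx55 (5 and 16), Ddx39 (5 and 11) and Dhx37 (4 and 10). These last shares were near the background.

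In the mitochondrion, 13 of 92 genes of oxidative phosphorylation lay at a member, 13 of the 88 with a CpG-island-like promoter and no H3K27me3 (14.8%). Cox19 led them, followed by Atp5b, the catalytic subunit of ATP synthase (21 and 41), Ndufa5 of complex I (29 and 25), Atp5e (12 and 13), Sdha of complex II (7 and 54) and Ndufs7 (9 and 16). Mitochondrial ribosomal proteins gave 5 of 70 (7.14%), close to the background. They were Mrps15 (43 and 68), Mrps23 (28 and 52), Mrpl32 (28 and 51), Mrpl45 (6 and 44) and Mrpl9 (9 and 4), so 3 of the few were in the upper range of scores. Cytosolic ribosomal proteins gave 9 of 78 (11.5%). Apart from Rpl22 their scores were far lower, with Rpl36 at 9 and 12, Rps15 at 12 and 6, Rpl10a at 6 and 12, Rps19 at 6 and 10 and Rpl7a at 6 and 9.

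In protein handling, 15 of 163 genes of vesicle traffic (9.20%) and 4 of 41 proteasome genes (9.76%) lay at a member. Vps28, which sorts proteins to lysosomes, scored 75 and 119, Vps13d 93 and 80, the GTPase gene Rab35 79 and 97 and the exocyst gene Exoc8 49 and 83. Vps72, which the list took by its name, encodes a subunit of chromatin remodelling complexes (43 and 63). The proteasome genes Psmd3 (85 and 104), Psma1 (63 and 83) and Psma2 (28 and 51) scored high and Psmd5 did not (5 and 12). Scores belong to regions, so genes that share a region carry the same scores, as Psma2 does with Mrpl32, and can count in more than 1 list. Ubiquitin conjugation gave 11 of 83 (13.3%), with scores of 8 or less in replicate 1. They were Ube2cbp (8 and 22), Ube2c (6 and 66), Anapc11 (5 and 18), Ube2v1 (6 and 8), Anapc16 (3 and 12), Anapc10 (5 and 7) and 5 more. Translation initiation factors gave 4 of 51 (7.84%), with Eif2b3 at 33 and 81, Eif4a3 at 4 and 20, Eif4a2 at 7 and 4 and Eif1 at 1 and 7. Aminoacyl-tRNA synthetases gave 2 of 37 (5.41%), Yars at 28 and 36 and Yars2 at 6 and 7.

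Among regulators, 4 of 23 Polycomb genes with a CpG-island-like promoter and no H3K27me3 were at a member (17.4%). Jarid2, the partner of AEBP2 in PRC2, scored 13 and 32, and Rbbp7, a histone-binding subunit of PRC2, 6 and 4. Mga (6 and 23) and Pcgf6 (3 and 10) encode subunits of a variant PRC1. Zinc finger Zfp genes gave 10 of 367, or 4.98% of those with such a promoter, led by Zfp295 (10 and 37), Zfp12 (14 and 13), Zfp664 (10 and 15), Zfp652 (8 and 9), Zfp2 (4 and 13) and Zfp318 (7 and 6). Histone cluster genes gave 3 of 64 (4.69%), which were the neighbours Hist1h2ad, Hist1h2bf and Hist1h3d at 1 region with scores of 22 and 12. Germline genes gave 2 of 19 (10.5%), and 3 before the restriction to CpG islands, which were Tex2 (74 and 107), taken by its name and not limited to germ cells, Zcwpw1 (21 and 26) and the meiotic cohesin gene Stag3 (11 and 12). Developmental transcription factors gave 0 of the 15 with such a promoter. Of the list, 173 (85.6%) had H3K27me3 at the promoter, and the rule takes no AEBP2 region that overlaps it. At AEBP2 regions with H3K27me3 lay 151. Pluripotency genes gave 0 of 22, and 7 of these had a CpG-island-like promoter without H3K27me3.

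**Figure D4:**
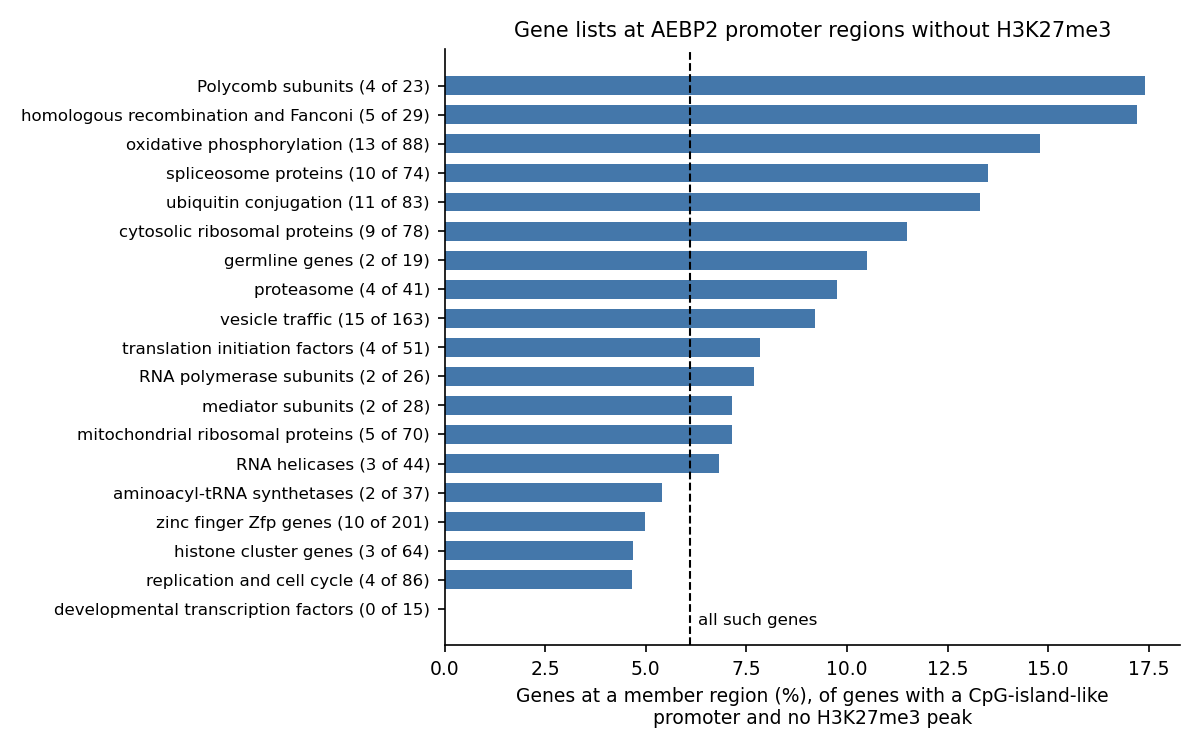
Share of genes at a member region (horizontal, in percent) among the genes of each list with a CpG-island-like promoter and no H3K27me3 peak, where the numbers in brackets are genes at members of genes in the list and the dashed line is the 6.09% of all such genes. Lists with fewer than 15 such genes are left out. Polycomb, recombination, oxidative phosphorylation, spliceosome and ubiquitin conjugation lists lay at 13.3% or above and the developmental transcription factors at 0.

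NRF1 words had a higher share at the members than at other CpG-island promoters. No share of a word was tested, since the words reported were singled out with their shares known. In the 300 bases from 250 before to 50 after the gene start, GCATGCGC was found at 103 of the 551 genes at members (18.7%, 15.7 to 22.2). The same window held it at 239 of 6289 genes with a CpG-island-like promoter and neither peak (3.8%, 3.36 to 4.30), at 26 of 1378 genes at AEBP2 regions with H3K27me3 (1.89%) and at 3.30% of all 22367 protein-coding promoters. CGCANGCG, which can overlap with GCATGCGC and was added after the share of that word had been seen, was at 263 of the 551 (47.7%), against 15% of the promoters with neither peak and 10.4% of all promoters. Promoters with an AEBP2 peak of replicate 2 alone and no H3K27me3 lay between, at 12.6% for GCATGCGC and 31% for CGCANGCG. Base composition was close in the compared windows, with a median GC content of 62.0% at members and 60.7% with neither peak. In a comparison of all words of 8 letters held by at least 5% of the promoters of members, 361 in number, the one with the highest ratio of shares was CGCATGCG, at 16.9% against 2.40%. The next 4, CATGCGCG, ATGCGCAG, CATGCGCA and ACGCATGC, overlap with it, while TCGCGAGA came 10th with 6.90% against 1.56%.

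NRF1 words had a higher share at the peak centres of members than at those of AEBP2 promoter regions with H3K27me3. These centres differed in place, within 250 bp of the gene start in 80.7% of members and 20.3% of regions with H3K27me3. Matches at members lay mostly near the start, and the part of position in this contrast was not tested. In the 300 bases around the middle of the stretch covered by both replicates, 104 of the 457 members held GCATGCGC (22.8%, 19.1 to 26.8), against 13 of the 1269 regions with H3K27me3 (1.02%, 0.6 to 1.74). CGCANGCG was there in 232 members (50.8%), in 8.27% of the regions with H3K27me3 and in 26.9% of the 156 distal regions without it. It recurred within single centres: 111 members had 1 copy, 84 had 2, 29 had 3 and 8 had 4 or more, and the counts with H3K27me3 were 96, 9, 0 and 0. Within 1 kb of the gene starts, matches to GCATGCGC on either strand were found at 136 genes, with a median position 27 bp upstream. Of these matches, 76.9% lay within 250 bp of the start, and a full palindrome GCGCATGCGC counted as 2 matches. Rab3gap2 and Mrpl32 each had 2 copies of CGCANGCG in the centre of the peak, and Xpo5 and Nup50 had 3.

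By function, the shares of CGCANGCG at the peak centre lay around the 50.8% of all members in the larger lists, and nothing particular to a list is read from them. It was at 8 of the 13 oxidative phosphorylation genes at members, among them Sdha, Ndufs7 and Uqcrc1, and at 4 of the 7 recombination genes, Palb2, Slx4, Rad54b and Fancl. Of the 10 spliceosome genes 5 held it, of the 15 vesicle traffic genes 7 and of the 11 ubiquitin conjugation genes 6. Of the 4 Polycomb genes, Mga, Pcgf6 and Rbbp7 held it and Jarid2 did not, and the 3 histone genes did not.

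The word differed with the score. Members were ordered by the mean of their ranks in both lists and split into 5 groups of 91 or 92. From the lowest to the highest scores, 14.3%, 25.3%, 26.1%, 34.1% and 14.1% of the centres held GCATGCGC, and 49.5%, 57.1%, 52.2%, 60.4% and 34.8% held CGCANGCG. The 92 members with the highest scores had scores from 19 to 148 in replicate 1 and from 25 to 193 in replicate 2. They had the lowest share of both words, but the lowest group held GCATGCGC nearly as seldom. Their interval for GCATGCGC (8.45 to 22.7) overlapped those of all groups but the fourth (25.2 to 44.3). For CGCANGCG their interval (25.8 to 44.9) overlapped those of the lowest group (39.4 to 59.5) and the third (42.1 to 62.1). In these 92, the 5-letter word ATCGA was at 34 centres (37.0%, 27.8 to 47.2), against 11% to 14.3% in the other groups. Its 6-letter palindrome ATCGAT was at 13 of the 92 (14.1%, 8.45 to 22.7) and at 0 to 3.26% of the other groups. Jmjd5 (scores of 106 and 73), Ercc2 (61 and 119) and Rpl22 are among the 13, and of the 6 highest-scoring promoters printed above, Snrpb2, Palb2 and Exoc2 hold ATCGA upstream of the gene and Rpl22, Snx18 and Pomt1 do not in those stretches. In the promoter window of all protein-coding genes the share was 7.48% for ATCGA and 0.876% for ATCGAT. At peak centres, ATCGA was in 17.7% of all members, 21.2% of distal AEBP2 regions without H3K27me3 and 11.1% of AEBP2 promoter regions with it. For ATCGAT these shares were 3.94%, 5.77% and 0.867%. Neither word was thus particular to the members. Both words were picked because of their share at high scores, so these shares were not tested.

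**Figure D5:**
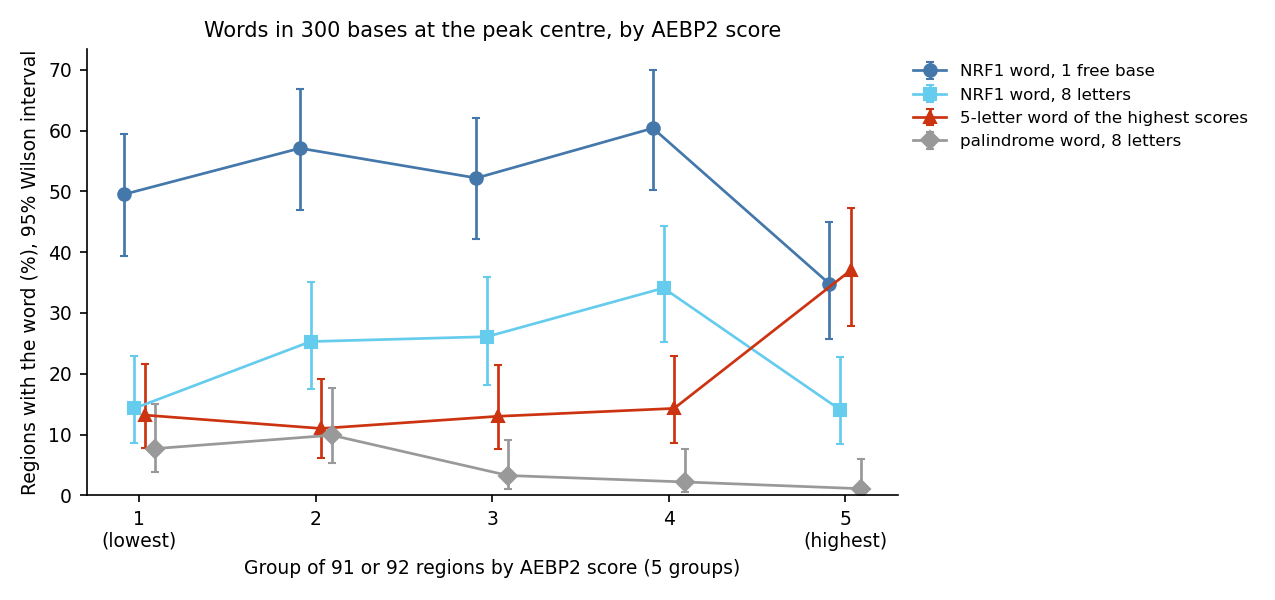
Share of member regions (vertical, in percent, with 95% Wilson intervals) whose 300 bases at the peak centre hold each of 4 words, for 5 groups of 91 or 92 regions from the lowest to the highest AEBP2 scores (horizontal). The NRF1 word of 8 letters is at 14.3% in the lowest group, 34.1% in the fourth and 14.1% in the highest. In the highest group the 5-letter word reaches 37.0%.

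Other words gave contrasts of varied size. The palindrome word CTCGCGAG was in the promoters of 28 of the 551 genes (5.08%, 3.54 to 7.25), against 1.49% with neither peak and 1.18% of all promoters, and promoters with a replicate 2 peak alone had 4.56%. At the centres its share ran from 7.69% and 9.89% in the groups with lower scores to 1.09% in the highest. The YY1 word AAGATGGC was at 10.7% of the centres and 0.788% of those with H3K27me3, yet in the promoter window its share at members, 6.17%, was close to the 5.26% of promoters with neither peak. The ETS word CCGGAAG had a lower share at genes of members (18.5%) than with neither peak (22.7%), though above the 3.19% at AEBP2 regions with H3K27me3. Lower shares at members than with neither peak were also found for the SP word GGGGCGGG (27.9% and 34.4%), the CRE word TGACGTCA (2.72% and 4.23%) and the E-box CACGTG (7.99% and 11.2%). Of the ETS, SP, CRE and E-box words, only SP had intervals that did not overlap (24.4 to 31.8 and 33.3 to 35.6). The CCAAT box gave 37.6% and 39.8%, and the GATA word AGATAAG, searched as a control, 0.544% and 1.61%. E2F words had a higher share at members (9.80% and 7.38%), with overlapping intervals (7.59 to 12.6 and 6.76 to 8.05). The E2F6 word TTCCCGC (10.3% and 9.19%), the REST word GGACAGCGC (1.09% and 0.811%) and the STAF word ACTACAAT (1.09% and 1.19%) differed little.

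Chromosome 8 held 51 of the members. Of its genes with a CpG-island-like promoter and no H3K27me3, 13.2% lay at a member, against 2.82% to 7.80% on the other autosomes and 3.04% on the X, which a male line carries once. AEBP2 peaks of replicate 1 covered 14.0% of these promoters on chromosome 8 and 3.45% to 8.63% on the other autosomes, and peaks of replicate 2 covered 40.8% and 22.3% to 31.9%. On the X the shares were 3.04% and 5.32%. FS2-AEBP2 covered 0.406% on chromosome 8, 0.465% to 2.86% on the other autosomes and 0.380% on the X. At promoters with H3K27me3, chromosome 8 lay within the range of the other autosomes, near its upper end in replicate 1. Its share was 44.2% in replicate 1 (others 30.3% to 45.0%) and 70.5% in replicate 2 (others 59.5% to 74.5%). The X had 31.6% and 69.7% at these promoters. Whether chromosome copy number in these cells had a part in this was not tested.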

How the data were processed

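Peaks were called by the authors sample by sample, and the deposited lists give the start and end of each peak and a score in whole numbers. The submitters' processing notes name Bowtie, SAMtools, Picard and MACS2 2.0.10.2 and the mm9 build; thresholds, duplicate handling and the control library are not given in the sources used here. No source states the scale of this score, and the number of peaks called rises with depth, which was not established. Replicate numbers of H3K27me3 follow the sample records, although the list names appear to give them the other way round. SUZ12, input and mutant samples were not analysed here.

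Peaks of chromosomes 1 to 19 and of the X and Y were joined. Gene starts were those of protein-coding genes in GENCODE vM1, and DNA was read from the mm9 (NCBIM37) genome. CpG-island-like regions and words were searched in that DNA. The 3 shares tested used a two-sided Fisher's exact test over regions with Benjamini-Hochberg adjustment, at an adjusted p of 0.05. Regions and genes are not samples, so tests and Wilson intervals cover counting error over regions or genes only. The overlap code was tested on simulated regions. The members, the 20 gene lists and the words were chosen with earlier results of these data known, and CGCANGCG, the core TGCGCA of the NRF1 palindrome (40.5% of promoters at members, 12.2% with neither peak), ATCGAT and its core were added after seeing the data.

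Genes named are the 10 members with the highest mean score rank, the 3 highest peaks of each list, the 5 highest FS2-AEBP2 scores with ties, the 3 longest and 3 shortest, the 3 nearest H3K27me3 on either side of the rule, and up to 6 per gene list, with Vps72, Fancl and Uqcrc1 named after their values were seen. One item that this rule names is not reported here. Sequences are those of the first 6 and of holders of the NRF1 word, of which 10 are printed, plus a pair for ATCGAT. Alternatives varied the H3K27me3 margin, the score minimum, the joining rule, the promoter, the replicates and the word window. Python 3.11.15, numpy 2.4.6, pandas 2.3.3, scipy 1.17.1, statsmodels 0.14.6, pysam 0.24.0, matplotlib 3.10.9 and samtools 1.23.1 were used.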

Additional observations from a re-analysis of the deposited data

How the results depend on the processing

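Of 83 recomputed values, 71 counted as unchanged. For the tested shares this meant the same direction and side of the threshold, and for the word shares a value within the interval of the reported one. The number of members and the number of gene lists had no interval and only had to stay within a set fold of the reported value. By that looser rule 540 members counted as unchanged from 457. The share of members with an FS2-AEBP2 peak (3.54% to 6.58%) and with a divergent gene pair (9.18% to 13.9%) stayed below and above that of AEBP2 promoter regions with H3K27me3 in all alternatives run, each past the threshold. The number of members was 249 with peaks at or above the median score of their list. Leaving out AEBP2 replicate 1 gave 2233 and leaving out replicate 2 gave 540, and without either H3K27me3 replicate it was 462 to 486. The share with a CpG-island-like region became lower than with H3K27me3 past the threshold at 96.8% (score at or above the median, adjusted p = 0.00360, Fisher's exact test), 96.6% (promoter of 2.5 kb) and 97.3% (every transcript start). Its difference changed sign without passing the threshold without AEBP2 replicate 1 (97.5%), without AEBP2 replicate 2 (97.6%) and with the looser CpG rule (100%), and leaving out 1 replicate at a time gave 97.5% to 97.8%. The share with the word CTCGCGAG moved to 2.81% at scores at or above the median and to 8.10% within 500 bases of the start. The share with GCATGCGC, 20.1% with 1 gene per member, moved to 27.8% within 500 bases and ran from 14.2% to 19.9% when 1 replicate was left out, with the lowest value without AEBP2 replicate 1. Between 11 and 14 of the 20 gene lists had a share above that of all genes with a CpG-island-like promoter and no H3K27me3, and 14 did in the reported values. Chromosome 8 was left out as an alternative chosen after seeing the data, which left 406 members. The causes of these changes were not tested. No paired analysis was possible because the tests compare classes of regions and not samples.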
